A study of Mus musculus with 14 samples.

Results

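The contacts of 4 paired box genes, *Pax3*, *Pax7*, *Pax9* and *Pax1*, were followed in cranial neural crest cells (CNCCs) by promoter capture Hi-C (PCHi-C), a method that cuts crosslinked chromatin with HindIII, ligates fragments that lie close together and captures those joined to a promoter fragment, the bait. A bait was taken when a start site of 1 of the 4 genes in the GENCODE vM21 annotation of the mm10 genome fell in it. This gave 5 of the 22171 bait fragments in the series, and 666 of its 1345534 distinct bait-fragment pairs. All 4 genes had a bait, and *Pax1* had a pair of them.

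The 14 libraries held 2 biological replicates of each of 7 conditions. At E10.5, wild-type CNCCs came from 4 sites, the frontonasal (FNP), maxillary (Mx) and mandibular (Md) processes of the face and the second arch (PA2) behind them. Wild-type pinna, the outer ear that grows from PA2, was taken at E12.5 and at E14.5. These embryos carried Wnt1::Cre and a ROSA RFP reporter, so that RFP-positive cells of the neural crest lineage could be sorted. PA2 was also taken at E10.5 from Hoxa2EGFP/EGFP embryos (*Hoxa2* KO), where a knocked-in EGFP disrupts *Hoxa2* and GFP-positive cells were sorted. Loss of *Hoxa2* and the change of reporter and sort cannot be told apart in that comparison, and neither can the E14.5 stage and its papain digestion, since all other tissue was dissociated with trypsin. Embryos were of a mixed C57Bl/6J;CD1 background, and embryos of both sexes were pooled. The files hold contacts and no expression, so neither the sorted cells nor the loss of *Hoxa2* could be checked against marker genes.

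Each library is a list of pairs with a CHiCAGO score, a weighted negative logarithm of the p-value of a pair against the contact frequency that its distance leads to in that library. Only scores of 5 or more are listed, and an unlisted pair was given 0, which stands for any score below 5. The libraries listed between 113670 and 186248 pairs within a chromosome. The *Hoxa2* KO libraries had the shortest of these lists, at 113670 and 120854, against 140559 and 145035 in PA2. Printed contact numbers and pair scores were not adjusted for the length of a list. Pairs between chromosomes made up 2.64% to 5.61% of a list in 12 libraries, but 46.5% in Md 1 and 62.7% in pinna E12.5 2. Read depth is unknown. Scores crowd between 33 and 35, with 2713 listed there over all libraries against 2124 from 31 to 33 and 1527 from 35 to 37, so small differences among strong scores carry little. A higher score can come from more cells with a contact or from a more frequent contact per cell, which cannot be told apart in bulk chromatin. The spread between the 2 biological replicates of a condition is the error used in the limma fits. The exact permutation tests of FNP pool Mx, Md and PA2, so their spread also holds differences between those tissues.

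Pax proteins are transcription factors that bind DNA through a paired domain. *Pax3* and *Pax7* are close relatives that also carry a homeodomain, act in neural crest and muscle precursors, and are needed for facial outgrowth. *Pax1* and *Pax9* lack the homeodomain and act in pharyngeal pouches, sclerotome and facial mesenchyme, where *Pax9* is needed for palate and teeth. *Pax1* and *Pax9* lie in paralogous regions, *Pax1* beside *Nkx2-2*, *Nkx2-4* and *Foxa2*, and *Pax9* beside *Nkx2-1* and *Foxa1*.

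The *Pax3* bait was the 798 bp fragment at chromosome 1, 78196361 to 78197158, and it held all annotated *Pax3* start sites. The *Pax7* bait was at chromosome 4, 139830026 to 139834963. The *Pax9* bait, at chromosome 12, 56691719 to 56695370, held the first *Pax9* start and that of the non-coding *Gm15524*, but the *Pax9* starts at 56695639 and 56695729 lay in the next fragment, which was no bait. *Pax1* bait 1 was at chromosome 2, 147358183 to 147361945, and held the first *Pax1* start at 147361925. *Pax1* bait 2, at 147362103 to 147367582, held the start at 147364994 and that of *AI646519*. A *Pax1* start at 147368282 lay in neither.

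The sequences of 6 stretches on which the results turn are shown, 5′ to 3′ on the plus strand of GRCm38. The first pair lie in *Pax3* itself, the next pair are fragments whose score with *Pax9* or *Pax1* was lower in *Hoxa2* KO PA2, and the last pair are the 250 bases before a start that RefSeq gives for *Pax1* and *Pax9*. None of them overlaps an exon.
*Pax3* intron, 54.9 kb downstream of the bait, middle 300 bases of a contacted fragment (chr1:78141734-78142033): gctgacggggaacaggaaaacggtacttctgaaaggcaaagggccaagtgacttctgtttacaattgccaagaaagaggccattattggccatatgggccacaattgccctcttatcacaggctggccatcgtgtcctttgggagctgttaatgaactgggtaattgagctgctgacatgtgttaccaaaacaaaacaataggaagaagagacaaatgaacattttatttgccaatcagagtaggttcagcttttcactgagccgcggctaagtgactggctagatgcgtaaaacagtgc
*Pax3* intron, 61.6 kb downstream, whole contacted fragment of 244 bases (chr1:78135035-78135278): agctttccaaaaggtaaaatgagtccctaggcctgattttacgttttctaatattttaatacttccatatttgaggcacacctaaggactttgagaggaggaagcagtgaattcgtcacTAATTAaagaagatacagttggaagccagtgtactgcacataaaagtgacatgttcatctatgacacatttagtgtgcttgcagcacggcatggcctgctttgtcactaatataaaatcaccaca
*Slc25a21* intron, 297.8 kb downstream of the *Pax9* bait, middle 300 bases (chr12:56991210-56991509): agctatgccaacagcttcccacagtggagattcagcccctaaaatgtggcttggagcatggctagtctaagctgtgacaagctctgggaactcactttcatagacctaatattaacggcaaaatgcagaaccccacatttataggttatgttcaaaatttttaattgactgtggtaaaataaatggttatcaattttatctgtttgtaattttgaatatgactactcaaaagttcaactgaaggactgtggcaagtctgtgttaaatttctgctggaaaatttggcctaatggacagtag
*9030622O22Rik* intron, 671.0 kb downstream of *Pax1* bait 2, middle 300 bases (chr2:148035692-148035991): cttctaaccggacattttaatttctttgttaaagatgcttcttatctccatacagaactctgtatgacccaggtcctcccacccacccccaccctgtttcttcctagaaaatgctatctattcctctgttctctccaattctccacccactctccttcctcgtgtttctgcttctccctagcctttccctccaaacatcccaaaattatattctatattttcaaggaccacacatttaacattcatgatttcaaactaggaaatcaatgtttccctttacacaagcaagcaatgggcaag
*Pax1*, upstream of the start in bait 2 (chr2:147364744-147364993): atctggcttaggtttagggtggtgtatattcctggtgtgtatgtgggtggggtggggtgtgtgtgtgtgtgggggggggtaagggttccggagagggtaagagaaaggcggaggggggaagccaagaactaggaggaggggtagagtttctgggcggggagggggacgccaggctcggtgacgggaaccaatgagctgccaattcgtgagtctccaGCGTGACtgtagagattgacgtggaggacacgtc
*Pax9*, upstream of a start outside the bait (chr12:56695221-56695470): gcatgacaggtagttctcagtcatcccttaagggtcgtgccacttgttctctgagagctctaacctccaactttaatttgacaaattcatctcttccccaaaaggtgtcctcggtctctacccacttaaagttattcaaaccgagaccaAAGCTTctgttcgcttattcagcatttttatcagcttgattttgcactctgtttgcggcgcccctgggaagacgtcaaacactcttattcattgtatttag

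Capitals mark the letters of 3 motifs searched on both strands. AAGCTT is the HindIII site, TAATTA a core that homeodomains bind and GTCACGC a core that paired domains bind. The HindIII site upstream of *Pax9* is the edge of its bait, and it leaves that start outside the bait. HindIII sites were in 6.22% of the 32851 upstream windows of all RefSeq genes, and never in a fragment window, by construction. TAATTA was in the 244-base *Pax3* fragment, and in 10.8% of the 187280 middle windows of 300 bases of all fragments searched. The paired-domain core lay upstream of *Pax1*, written GCGTGAC, as its reverse strand, and was in 1.78% of upstream windows and 0.414% of fragment windows. These matches describe letters and no binding. RefSeq upstream windows were found for 3 of the 4 Pax genes, and that of *Pax7* is not shown because it overlaps an exon.

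*Pax3*, *Pax9* and *Pax1* had long lists of contacts, and *Pax7* had almost none. Within 2 Mb, the mean number of listed fragments over the 14 libraries was 48.2 for *Pax3*, 53.1 for *Pax9*, 30.5 for *Pax1* bait 1 and 36.7 for *Pax1* bait 2, against a median of 6.71 over the 13471 baits that passed the filter of at least 5 fragments in at least 2 libraries. Of those baits, 98.9% lay below *Pax3* and 99.3% below *Pax9*, while 0.119% lay below the 1.50 of *Pax7*. The *Pax7* bait did not pass the filter, and the other 4 did.

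**Figure D1:**
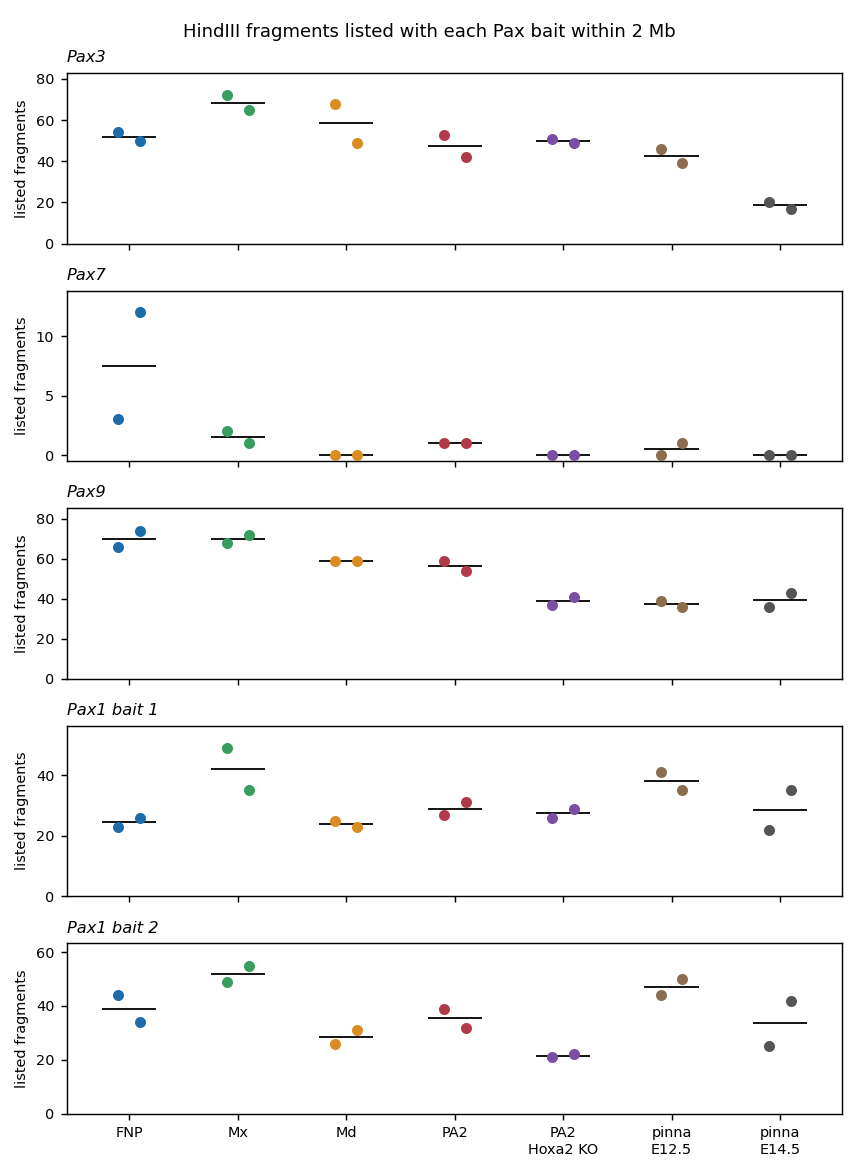
Number of HindIII fragments listed within 2 Mb of each Pax bait (y axis, 1 panel per bait with its own scale) in the 7 conditions (x axis). Points are the 2 libraries of a condition and the bar is their mean. *Pax3* falls to 20 and 17 in the E14.5 pinna, *Pax7* rises above 3 only in FNP 2, and *Pax9* lies at or below 43 in all KO and pinna libraries.

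For *Pax3*, 54 and 50 fragments were listed in FNP, 72 and 65 in Mx, 68 and 49 in Md, 53 and 42 in PA2, 51 and 49 in *Hoxa2* KO PA2, 46 and 39 in the E12.5 pinna and 20 and 17 in the E14.5 pinna. The E14.5 pinna lay below every other library, and neighbours in the order from Mx down to the E12.5 pinna overlapped. For *Pax9* the numbers were 66 and 74 in FNP, 68 and 72 in Mx, 59 and 59 in Md, 59 and 54 in PA2, 37 and 41 in KO PA2, 39 and 36 in the E12.5 pinna and 36 and 43 in the E14.5 pinna. The wild-type E10.5 libraries, all at 54 or more, lay above all KO and pinna libraries, and the latter 3 conditions overlapped each other.

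*Pax1* followed another order. Bait 1 was listed with 23 and 26 fragments in FNP, 49 and 35 in Mx, 25 and 23 in Md, 27 and 31 in PA2, 26 and 29 in KO PA2, 41 and 35 in the E12.5 pinna and 22 and 35 in the E14.5 pinna. Bait 2 had 44 and 34 in FNP, 49 and 55 in Mx, 26 and 31 in Md, 39 and 32 in PA2, 21 and 22 in KO PA2, 44 and 50 in the E12.5 pinna and 25 and 42 in the E14.5 pinna. Mx and the E12.5 pinna were at the top for both baits, and KO PA2 was lowest for bait 2 without overlap with the next condition, Md. The baits are not independent: 86 fragments were listed with both, which is 85.1% of those of bait 1 and 69.4% of those of bait 2 on the chromosome.

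The number of contacts was tested over all 13471 baits with limma on log2 of the number plus 1, after each library was centred. Over the 7 conditions, 3 of the 4 tested Pax baits passed an adjusted p of 0.05, namely *Pax3* (adjusted p = 0.000451), *Pax9* (adjusted p = 0.00420) and *Pax1* bait 2 (adjusted p = 0.0316), while 9.69% of all tested baits passed. *Pax1* bait 1 did not pass, at an adjusted p of 0.108. FNP against Mx, Md and PA2 gave no call among the 4 in limma (0 of 4, also 0 at an unadjusted p below 0.05, where 0.0223% of all baits were called).

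In the pinna of both stages against PA2, *Pax3* and *Pax9* fell, and 4.74% of all baits were called in that comparison, 2.39% as lower. The log2 difference was -0.74 ± 0.185 (SE) for *Pax3* and -0.55 ± 0.138 for *Pax9*, both at an adjusted p of 0.0291 in limma. Taken by stage, the fall of *Pax3* lay at E14.5, with a difference to PA2 of -1.38 ± 0.213 (adjusted p = 0.00139, where 4.94% of baits were called and 2.64% as lower) and of -0.10 ± 0.213 at E12.5 (adjusted p = 0.877, 1.28% of baits called). The direct difference of E14.5 to E12.5 was -1.29 ± 0.213 for *Pax3* (limma adjusted p = 0.0125), which was 1 of only 28 baits, or 0.208%, called between the stages, 0.148% as lower. For *Pax9* the difference to PA2 was alike at both stages, -0.52 ± 0.160 at E12.5 (adjusted p = 0.116) and -0.58 ± 0.160 at E14.5 (adjusted p = 0.0429).

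The calls in the pooled pinna comparison were fragile. No Pax bait passed without PA2 1, without PA2 2 or without pinna E12.5 2, and 1 passed without either E14.5 library. *Hoxa2* KO PA2 against PA2 gave no call among the 4 in limma, where 0.75% of all baits were called. The largest log2 difference among them was -0.49 ± 0.226 for *Pax1* bait 2 (unadjusted p = 0.0460, adjusted p = 0.364), and *Pax9* was at -0.32 ± 0.160 (adjusted p = 0.408).

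Single pairs were tested with limma on the asinh of the score, a scale that acts like a logarithm for high scores and leaves 0 at 0. Of the 666 pairs, 260 were listed in at least 4 libraries and were tested, among 159013 pairs of all baits. They were 79 of *Pax3*, 2 of *Pax7*, 81 of *Pax9*, 42 of *Pax1* bait 1 and 56 of *Pax1* bait 2. The score of 42 of them differed over the 7 conditions, 11 of *Pax3*, 10 of *Pax9*, 10 of *Pax1* bait 1 and 11 of *Pax1* bait 2, where 4.37% of all tested pairs were called. A difference between a listed score and 0 is partly set by the floor at 5, and neighbouring fragments share ligation events and are not independent.

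*Pax3* had 114 distinct contacts within 2 Mb, 71 of them downstream, and they fell into 2 blocks. The first block, 209.8 to 297.1 kb upstream, spanned 30 contacted fragments over *Farsb*, which encodes a subunit of phenylalanyl-tRNA synthetase, and *Sgpp2*, a sphingosine phosphate phosphatase. The second, from 27.1 to 255.4 kb downstream, held 61 fragments in the *Pax3* gene and in the region behind it, which holds the non-coding *Gm28387*. Both together held most contacts, and 5 fragments were listed in every library.

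The blocks changed in different ways across the face. In the *Farsb* block, 22 and 23 fragments were listed in FNP, 20 and 19 in Mx, 17 and 14 in Md, 13 and 12 in PA2, 16 and 15 in KO PA2, 14 and 11 in the E12.5 pinna and 10 and 8 in the E14.5 pinna. FNP was thus the highest and the E14.5 pinna the lowest, without overlap with the rest. In the downstream block the numbers were 27 and 22 in FNP, 49 and 42 in Mx, 46 and 34 in Md, 37 and 28 in PA2, 32 and 32 in KO PA2, 29 and 27 in the E12.5 pinna and 8 and 9 in the E14.5 pinna. Here Mx had the highest mean and overlapped Md, FNP was the lowest of the E10.5 conditions with values that reached those of the E12.5 pinna, and the E14.5 pinna again lay apart.

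**Figure D2:**
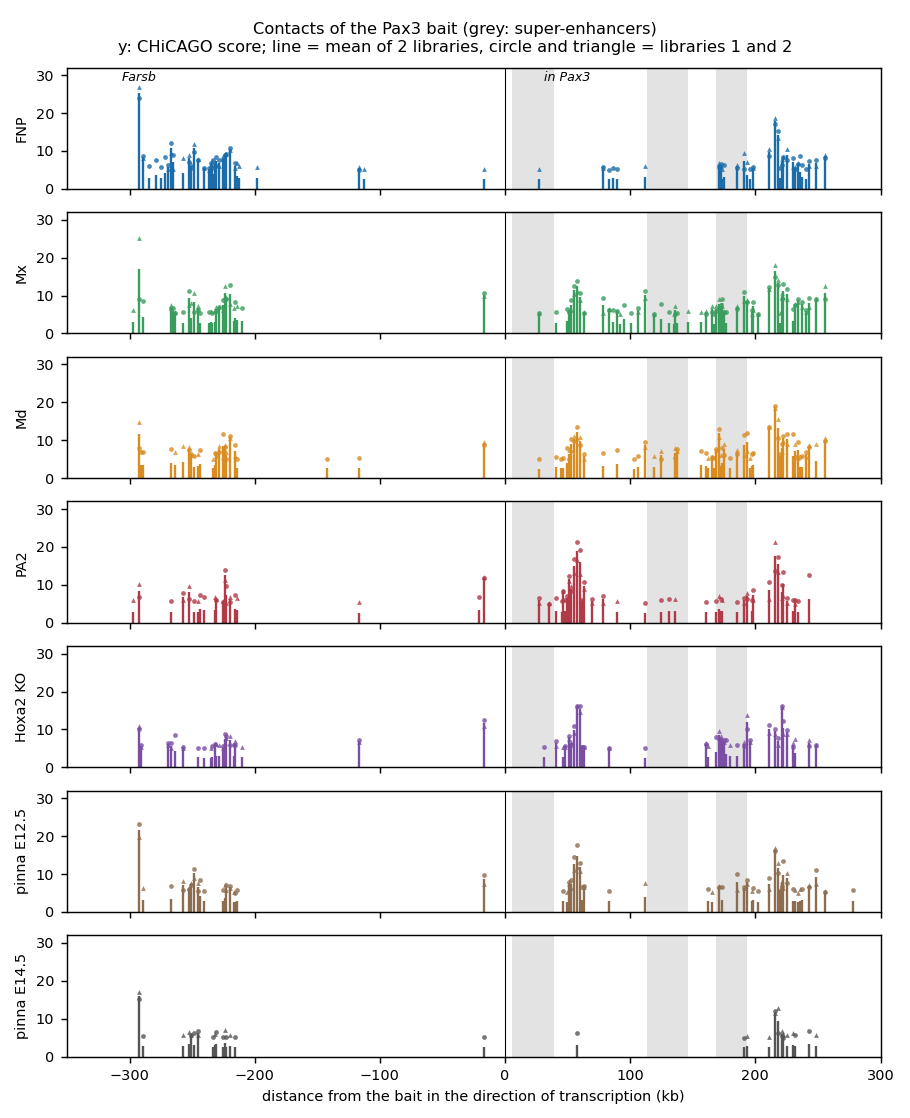
CHiCAGO score of *Pax3* contacts (y axis, 0 to 32) against distance from the bait in kb (x axis, positive in the direction of transcription), 1 panel per condition, with lines at the mean of 2 libraries, circles and triangles at the single libraries and super-enhancers in grey. The stretch from 51.1 to 63.1 kb inside *Pax3* is empty in FNP, filled in Mx, Md, PA2, KO PA2 and the E12.5 pinna, and holds 1 listed score, of 6.12, in the E14.5 pinna.

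A run of fragments inside *Pax3* made the FNP differ from the rest of the face. In FNP against Mx, Md and PA2, 7 pairs were called, all of *Pax3*, 6 lower and 1 higher in FNP, where 0.189% of all tested pairs were called, 0.0987% as lower and 0.0906% as higher. The 6 lower pairs lay at 51.1, 52.6, 54.9, 57.4, 59.6 and 63.1 kb, side by side in *Pax3* but for the 244-base fragment and its neighbour between 59.6 and 63.1 kb, and 5 of them were intronic. All 6 were unlisted in both FNP libraries and listed in all 6 libraries of Mx, Md and PA2.

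At 54.9 kb, the fragment whose middle is printed first, the score was 0 and 0 in FNP, 12.6 and 10.3 in Mx, 9.70 and 11.0 in Md and 16.9 and 13.1 in PA2. It was 10.9 and 9.07 in KO PA2, 12.7 ± 2.47 (SD, n = 2) in the E12.5 pinna, and 0 and 0 in the E14.5 pinna. FNP and the E14.5 pinna thus shared the absence of this contact, and every library between scored 9.07 or more. The asinh difference of FNP was -3.18 ± 0.294 (SE), with an adjusted p of 0.0128 in limma.

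At 59.6 kb the score was 0 and 0 in FNP, 10.6 and 8.78 in Mx, 8.69 and 10.8 in Md, 19.2 and 12.9 in PA2, 16.1 and 14.6 in KO PA2, 13.0 and 10.8 in the E12.5 pinna and 0 and 0 in the E14.5 pinna. The asinh difference of FNP was -3.13 ± 0.291 (limma adjusted p = 0.0128). These 2 calls were made in 21 of 22 other settings and failed with scores of 10 or more alone. The other 4 lower pairs passed at limma adjusted p from 0.0331 to 0.0452, and in 6 to 14 other settings. Of the 7 calls, 2 were left without Mx 1, Md 1, Md 2, PA2 1 or PA2 2, 3 without Mx 2, and 4 without FNP 1 or KO PA2 1. The highest scores of the run were at 57.4 kb, with 13.9 and 11.1 in Mx, 13.6 and 10.6 in Md, 21.3 and 16.6 in PA2, 16.2 and 16.1 in KO PA2, 17.6 and 11.9 in the E12.5 pinna and 6.12 and 0 in the E14.5 pinna. That call was made in 6 of 22 other settings.

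Over the whole *Pax3* gene, as the mean score over its 30 HindIII fragments with unlisted fragments at 0, the value was 0.721 and 0.352 in FNP, 3.66 and 2.56 in Mx, 3.23 and 1.74 in Md, 5.26 and 4.15 in PA2, 3.22 and 3.06 in KO PA2, 2.86 and 1.97 in the E12.5 pinna and 0.204 and 0 in the E14.5 pinna. PA2 was highest, without overlap with any other condition. Over the 34 fragments of *Farsb* it was 6.10 and 5.25 in FNP, 3.94 and 4.08 in Mx, 3.30 and 3.01 in Md, 2.55 and 2.17 in PA2, 2.73 and 2.44 in KO PA2, 2.93 and 2.47 in the E12.5 pinna and 1.80 and 1.75 in the E14.5 pinna. Among the E10.5 wild-type tissues FNP was thus lowest over *Pax3* and highest over *Farsb*, PA2 the reverse, and the E14.5 pinna was lowest over both. These regions were chosen for their place in the blocks after the values were seen, and the order was not tested.

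The 1 pair higher in FNP lay 269.5 kb upstream, at a start of the non-coding *4833412K13Rik* within *Farsb*. Its score was 6.35 and 5.14 in FNP, 6.39 and 5.85 in KO PA2 and 0 in the other 10 libraries. It was called in FNP (2.44 ± 0.372, adjusted p = 0.0452) and in the KO against PA2 (2.51 ± 0.455, adjusted p = 0.0166) in limma. The pair met the filter of 4 libraries only through the 2 conditions in which it was then called, and all 4 listed scores are close to the floor of 5.

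The contact of *Pax3* with the *Farsb* promoter, 292.5 kb upstream, was the strongest of *Pax3* on average and did not pass the test over the 7 conditions (limma adjusted p = 0.286). Its score was 23.9 and 26.9 in FNP, 8.98 and 25.3 in Mx, 7.97 and 14.9 in Md, 6.73 and 10.1 in PA2, 10.0 and 10.8 in KO PA2, 23.3 and 19.9 in the E12.5 pinna and 15.1 and 17.1 in the E14.5 pinna. The replicates of Mx differed almost as much as the conditions. The intergenic fragment 215.9 kb downstream was also listed in all libraries, at scores from 8.78 to 21.4.

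In the pinna against PA2, 26 of the 260 tested Pax pairs were called, 21 lower and 5 higher, where 1.57% of all tested pairs were called, 0.857% as lower and 0.708% as higher. For *Pax3* all 3 calls were lower. They were the fragments at 54.9 and 59.6 kb and the 244-base fragment at 61.6 kb, which was listed only in PA2 (5.89 and 5.36) and KO PA2 (5.40 and 5.25) and so passed the filter through PA2 and the KO alone. E14.5 set the first 2: the E12.5 scores were 10.8 or more, and the direct difference of E14.5 to E12.5 was -3.23 at 54.9 kb (limma adjusted p = 0.00503) and -3.17 at 59.6 kb (adjusted p = 0.00527). Without PA2 1 or without PA2 2, the count of 26 fell to 6 or 5.

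Taken by stage, 9 Pax pairs were called at E12.5 against PA2, 6 lower and 3 higher, where 1.35% of all pairs were called, 0.696% as lower and 0.656% as higher. At E14.5 there were 34, 30 lower and 4 higher, where 1.62% of all pairs were called, 0.815% as lower and 0.806% as higher. Between the stages, 19 pairs were called, 18 lower and 1 higher at E14.5, where 0.862% of all pairs were called, 0.405% as lower and 0.457% as higher. The 18 were 6 of *Pax3*, 2 of *Pax9*, 3 of *Pax1* bait 1 and 7 of *Pax1* bait 2, and the *Pax1* baits share most of their fragments.

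In *Hoxa2* KO PA2 against PA2, 12 of the 260 pairs were called, 10 lower and 2 higher, where 2.09% of all tested pairs were called, 1.74% as lower and 0.359% as higher. Over all tested pairs the median asinh difference of the KO to PA2 was -0.09. How far the shorter KO lists bear on the 12 calls was not tested. Without KO PA2 1 the count was 6, and without both libraries rich in pairs between chromosomes it was 22. *Pax3* had 1 of each, the upstream pair near *4833412K13Rik* and a lower pair with a fragment in the non-coding *Gm11608*, 14.9 Mb away beside the imprinted *Zdbf2*. The latter scored 12.7 ± 3.07 (SD, n = 2) in PA2, 9.30 and 7.11 in the E12.5 pinna and 0 in the other 10 libraries (KO difference -3.22 ± 0.522, limma adjusted p = 0.00858), so that it passed the filter through PA2 and the E12.5 pinna alone. Its neighbour with the *Zdbf2* promoter scored 17.6 and 8.30 in PA2 and 7.44 and 11.6 in KO PA2, and was not called (adjusted p = 1.00), so that the loss did not hold across the region.

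*Pax7* was listed with few fragments and mostly in FNP. Within 2 Mb there were 3 and 12 fragments in FNP, 2 and 1 in Mx, 0 and 0 in Md, 1 and 1 in PA2, 0 and 0 in KO PA2, 0 and 1 in the E12.5 pinna and 0 and 0 in the E14.5 pinna. FNP lay above all other libraries, by 7.50 against 0.833 on average for the other E10.5 wild-type libraries. The difference of 6.67 had a two-sided exact permutation p of 0.0357, the smallest that 2 libraries against 6 allow. It rests largely on FNP 2: with FNP 1 alone the difference was 2.17, with an exact p of 0.143 that is the smallest 1 library against 6 allows. The test was added after the data were seen, since the bait did not pass the filter of the fit.

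The *Pax7* contacts that both FNP libraries listed were 3 in number. At 152.4 kb downstream, in intergenic sequence between *Pax7* and *Tas1r2*, a taste receptor gene, the score was 6.66 and 9.77 in FNP, 5.21 in Mx 1 and 5.08 in PA2 2. At 143.0 kb it was 5.10 and 7.07 in FNP and 6.00 in Mx 1. Closest to the promoter, 10.2 kb downstream in an intron of *Pax7*, it was 7.07 and 8.10 in FNP, 5.45 in Mx 2 and 5.19 in PA2 1. The rest of the 14 libraries were at 0 for each of them, and none of the 2 tested pairs was called. FNP 2 alone listed a further 9 fragments, from 80.7 to 179.6 kb.

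*Pax9* had 108 distinct contacts within 2 Mb, 95 of them downstream, in 3 blocks. The first lay 155 to 176.3 kb upstream at *Nkx2-1*, a homeobox gene of thyroid and lung, and the pseudogene *Sfta3-ps*. The second, 250.9 to 542 kb downstream, held 71 fragments mostly in the introns of *Slc25a21*, a mitochondrial carrier gene that runs towards *Pax9*. The third, 834.2 to 876.8 kb downstream, held the forkhead gene *Foxa1*.

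**Figure D3:**
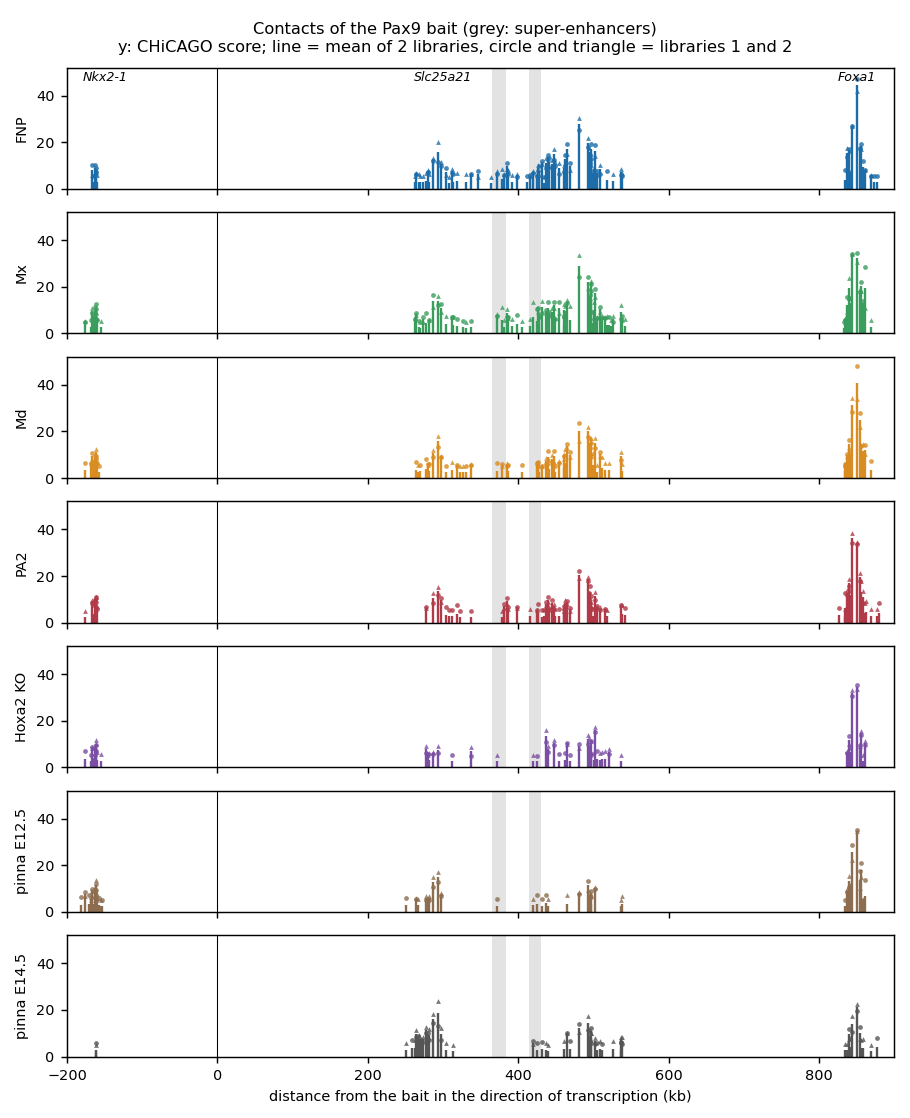
CHiCAGO score of *Pax9* contacts (y axis, 0 to 52) against distance from the bait in kb (x axis, positive in the direction of transcription), 1 panel per condition, with lines at the mean of 2 libraries, circles and triangles at the single libraries and super-enhancers in grey. The *Foxa1* contact near 850.3 kb stands out in every panel, and the block in *Slc25a21* is dense in the 4 wild-type E10.5 tissues and sparse in KO PA2 and the pinna.

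The *Slc25a21* block was the largest of the 3. It held 47 and 56 listed fragments in FNP, 49 and 52 in Mx, 38 and 42 in Md, 42 and 35 in PA2, 23 and 25 in KO PA2, 18 and 19 in the E12.5 pinna and 29 and 32 in the E14.5 pinna. Every wild-type E10.5 library lay above every KO and pinna library. The summed score of the block was 462.9 and 542.5 in FNP, 345.3 and 290.6 in PA2, 170.9 and 216.6 in KO PA2, 134.2 and 151.8 in the E12.5 pinna and 229.2 and 304.4 in the E14.5 pinna, where E14.5 overlapped PA2. That of the *Foxa1* block was 156.4 and 194.5 in PA2, 126.6 and 130.9 in KO PA2, 156.0 and 124.3 in the E12.5 pinna and 62.4 and 93.8 in the E14.5 pinna. By summed score, the *Foxa1* block at E14.5 was thus apart from PA2 and the *Slc25a21* block was not. By number of listed fragments it was the other way. The *Foxa1* block listed 9 and 12 fragments in PA2 and 5 and 10 at E14.5, which overlap. The blocks were drawn after the values were seen and were not tested.

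Of the 8 *Pax9* pairs called in the pinna, 5 lay in this block, 4 lower and 1 higher. The fragment at 384.5 kb, on the edge of a super-enhancer, scored 11.2 and 8.32 in FNP, 7.16 and 10.4 in Mx, 5.32 and 6.42 in Md and 10.8 and 8.11 in PA2, and 0 in all KO and pinna libraries. The asinh difference was -2.93 ± 0.478 in the pinna (limma adjusted p = 0.0119) and -2.93 ± 0.552 in the KO (adjusted p = 0.0195). The fragment at 445.0 kb had the same pattern, with scores from 6.58 upwards, 10.7 ± 2.47 (SD, n = 2) in FNP, in the 8 wild-type E10.5 libraries and 0 in the other 6. Both contacts were thus unlisted in the KO and in the pinna. The KO and pinna comparisons share the PA2 libraries.

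At other fragments KO and pinna took different values. At 448.1 kb the score was 6.05 and 8.10 in PA2, 9.65 and 11.5 in KO PA2 and 0 in all 4 pinna libraries (pinna difference -2.64 ± 0.350, limma adjusted p = 0.0116). At 297.8 kb, shown above, it was 9.99 and 11.3 in FNP, 12.8 and 9.12 in Mx, 8.98 and 9.63 in Md, 10.7 and 9.08 in PA2, 6.76 and 8.33 in the E12.5 pinna and 7.15 and 12.4 in the E14.5 pinna, but 0 and 0 in KO PA2. This contact was unlisted in the KO alone, with a difference of -2.99 ± 0.312 (limma adjusted p = 0.000942), and was called in 21 of 22 other settings.

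The fragment at 280.2 kb was the 1 *Pax9* pair called as higher, both in the pinna and in the KO. It scored 7.32 and 8.03 in FNP, 0 and 0 in Mx, 6.13 and 5.60 in Md, 0 and 0 in PA2, 5.85 and 5.48 in KO PA2, 5.56 and 5.09 in the E12.5 pinna and 10.0 and 8.59 in the E14.5 pinna. It rose in the pinna (2.65 ± 0.406, limma adjusted p = 0.0116) and in the KO (2.43 ± 0.468, adjusted p = 0.0219), from 0 in PA2 in both cases. Among the stronger contacts, the fragment at 480.8 kb went from 22.0 and 19.1 in PA2 to 10.1 and 8.27 in KO PA2 and to between 7.78 and 14.1 in the pinna. It passed at limma adjusted p of 0.0454 in the KO and 0.0480 in the pinna, in 10 and 7 of 22 other settings.

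At *Nkx2-1* the contacts of *Pax9* were listed at E12.5 and nearly all unlisted at E14.5. The block listed 5 and 5 fragments in FNP, 8 and 8 in Mx, 9 and 7 in Md, 6 and 6 in PA2, 6 and 7 in KO PA2, 8 and 9 in the E12.5 pinna and 1 and 1 in the E14.5 pinna. The fragments at 162.9 and 166.2 kb were listed in all 12 other libraries and at 0 in both E14.5 libraries, and both fell from E12.5 to E14.5 (-2.97 and -2.92, each at a limma adjusted p of 0.00468). The fragment with the *Nkx2-1* start, at 159.6 kb, was listed in 10 libraries at 5.12 to 7.60, in neither of E14.5, and was not called (adjusted p = 0.362 over the 7 conditions).

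The *Foxa1* promoter, 850.3 kb downstream, was the strongest contact of *Pax9*. Its score was 47.1 and 41.9 in FNP, 34.6 and 30.5 in Mx, 47.9 and 33.9 in Md, 33.9 and 34.6 in PA2, 35.5 and 33.7 in KO PA2, 35.3 and 34.6 in the E12.5 pinna and 19.6 and 22.6 in the E14.5 pinna. It differed over the 7 conditions (limma adjusted p = 0.0159), with the E14.5 pinna below all others. The difference of E14.5 to PA2 was -0.49 (adjusted p = 0.0411), that of the KO was 0.01, and the fragment beside it, at 843.6 kb, went from 34.2 and 38.5 in PA2 to 10.4 and 17.5 at E14.5.

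**Figure D4:**
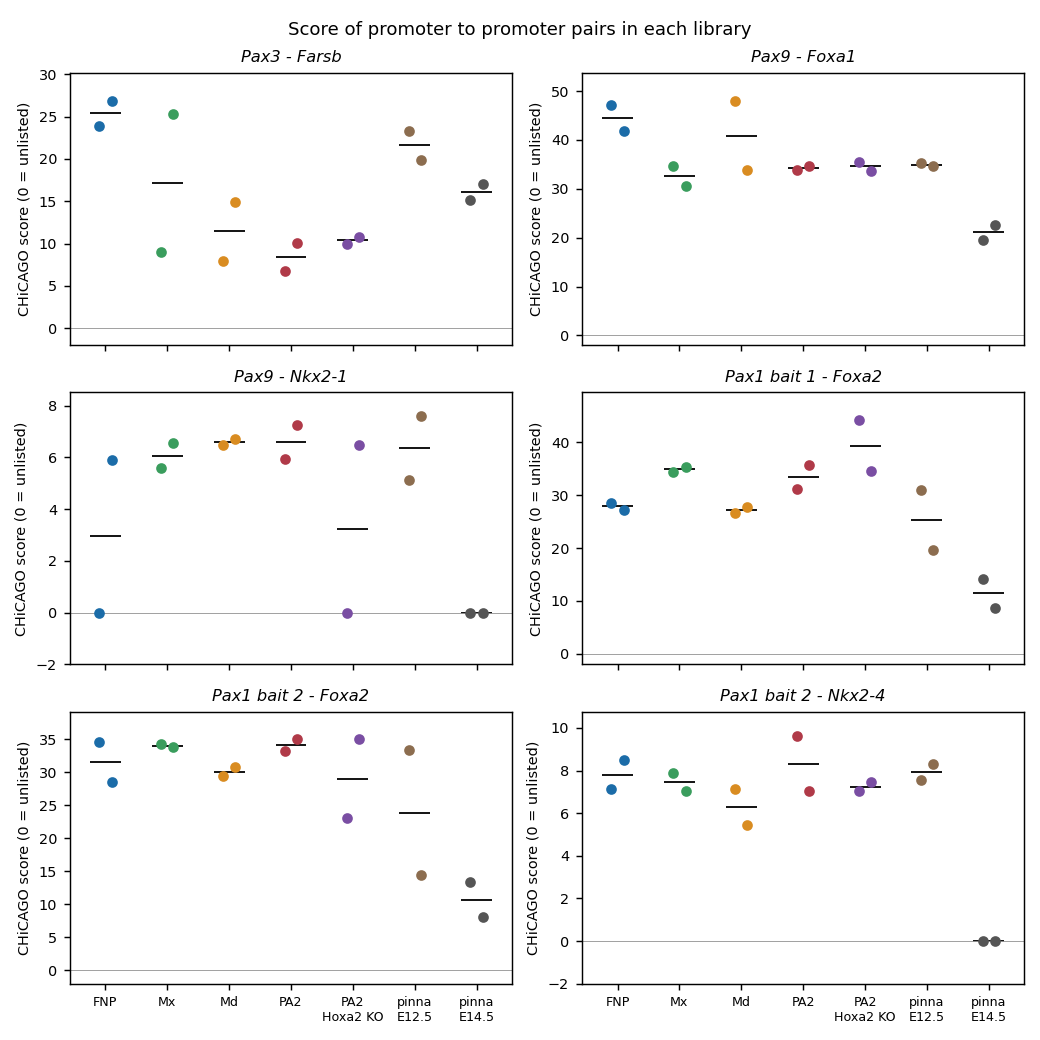
CHiCAGO score (y axis, 0 for an unlisted pair) of 6 pairs of a Pax bait with another promoter in the 7 conditions (x axis), with points at the 2 libraries and bars at their mean. *Foxa1* and *Foxa2* score 13.4 or more with *Pax9* and *Pax1* in all libraries but E14.5 pinna 2, where the *Pax1* baits score 8.75 and 8.09. *Nkx2-1* and *Nkx2-4* are at 0 in the E14.5 pinna, and *Nkx2-1* also in FNP 1 and KO PA2 1.

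*Pax1* contacted the paralogous partners. Both *Pax1* baits met the fragment with the promoter of *Foxa2*, a forkhead gene of endoderm and floor plate, 686.7 and 681.9 kb downstream, in every library. That fragment is 20012 bp long and also holds starts of the non-coding *9030622O22Rik* and *Gm27420*, which the score does not separate from that of *Foxa2*. With bait 1 the score was 28.6 and 27.1 in FNP, 34.3 and 35.4 in Mx, 26.6 and 27.8 in Md, 31.1 and 35.7 in PA2, 44.1 and 34.6 in KO PA2, 31.0 and 19.6 in the E12.5 pinna and 14.2 and 8.75 in the E14.5 pinna. With bait 2 it was 33.2 and 35.0 in PA2, 23.1 and 35.0 in KO PA2, 33.4 and 14.4 in the E12.5 pinna and 13.4 and 8.09 in the E14.5 pinna. Both baits had their lowest scores at E14.5, where the difference to PA2 was -1.09 for bait 1 (limma adjusted p = 0.0203) and -1.18 for bait 2 (adjusted p = 0.0468). Over the 7 conditions bait 1 passed (adjusted p = 0.0122) and bait 2 did not (adjusted p = 0.138), and neither passed between the stages (adjusted p = 0.0883 and 0.442). In the pooled pinna bait 1 passed (adjusted p = 0.0483, in 4 of 22 other settings) and bait 2 did not (adjusted p = 0.122).

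Upstream, bait 2 met the homeobox genes *Nkx2-4* and *Nkx2-2*, each of which bait 1 met in 3 libraries. The *Nkx2-4* fragment, 280.3 kb upstream, was listed in all 12 libraries other than E14.5 at 5.45 to 9.61, and at 0 and 0 in E14.5, with a difference of E14.5 to E12.5 of -2.77 (limma adjusted p = 0.00722). The fragment with an *Nkx2-2* start, 179.7 kb upstream, was listed in all 8 wild-type E10.5 libraries at 5.63 to 9.49, at 6.62 in pinna E12.5 1 and nowhere else. It was not called (limma adjusted p = 0.147 over the 7 conditions). Its neighbour at 176.2 kb, also within *Nkx2-2*, was listed in 11 libraries, among them both KO libraries at 5.41 and 5.24. The start of *Insm1*, a zinc finger gene of neuroendocrine cells, lay in a fragment 1141.7 kb upstream. That fragment was listed in FNP 1, Md and PA2 at 6.35 to 11.6 and at 0 elsewhere, also without a call (limma adjusted p = 0.154). Other fragments of the 4 contacted at *Insm1* were listed in FNP 2, in Mx, in KO PA2 2 (5.34) and in pinna E12.5 2 (5.08).

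Farther upstream, both baits met the long non-coding gene *Gm14114*. At 532.7 kb, bait 2 scored 16.7 and 14.1 in FNP, 18.4 and 16.1 in Mx, 17.8 and 14.3 in Md, 19.2 and 14 in PA2, 13.7 and 16.8 in KO PA2, 13.6 and 11.3 in the E12.5 pinna and 0 and 0 in the E14.5 pinna. The pinna difference of -1.88 ± 0.183 (limma adjusted p = 0.00370) was called in all 22 other settings, and the difference of E14.5 to E12.5 was -3.21 ± 0.211 (adjusted p = 0.000399). Bait 1 lost the same fragment at E14.5, from 9.64 and 5.91 at E12.5 to 0 and 0.

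**Figure D5:**
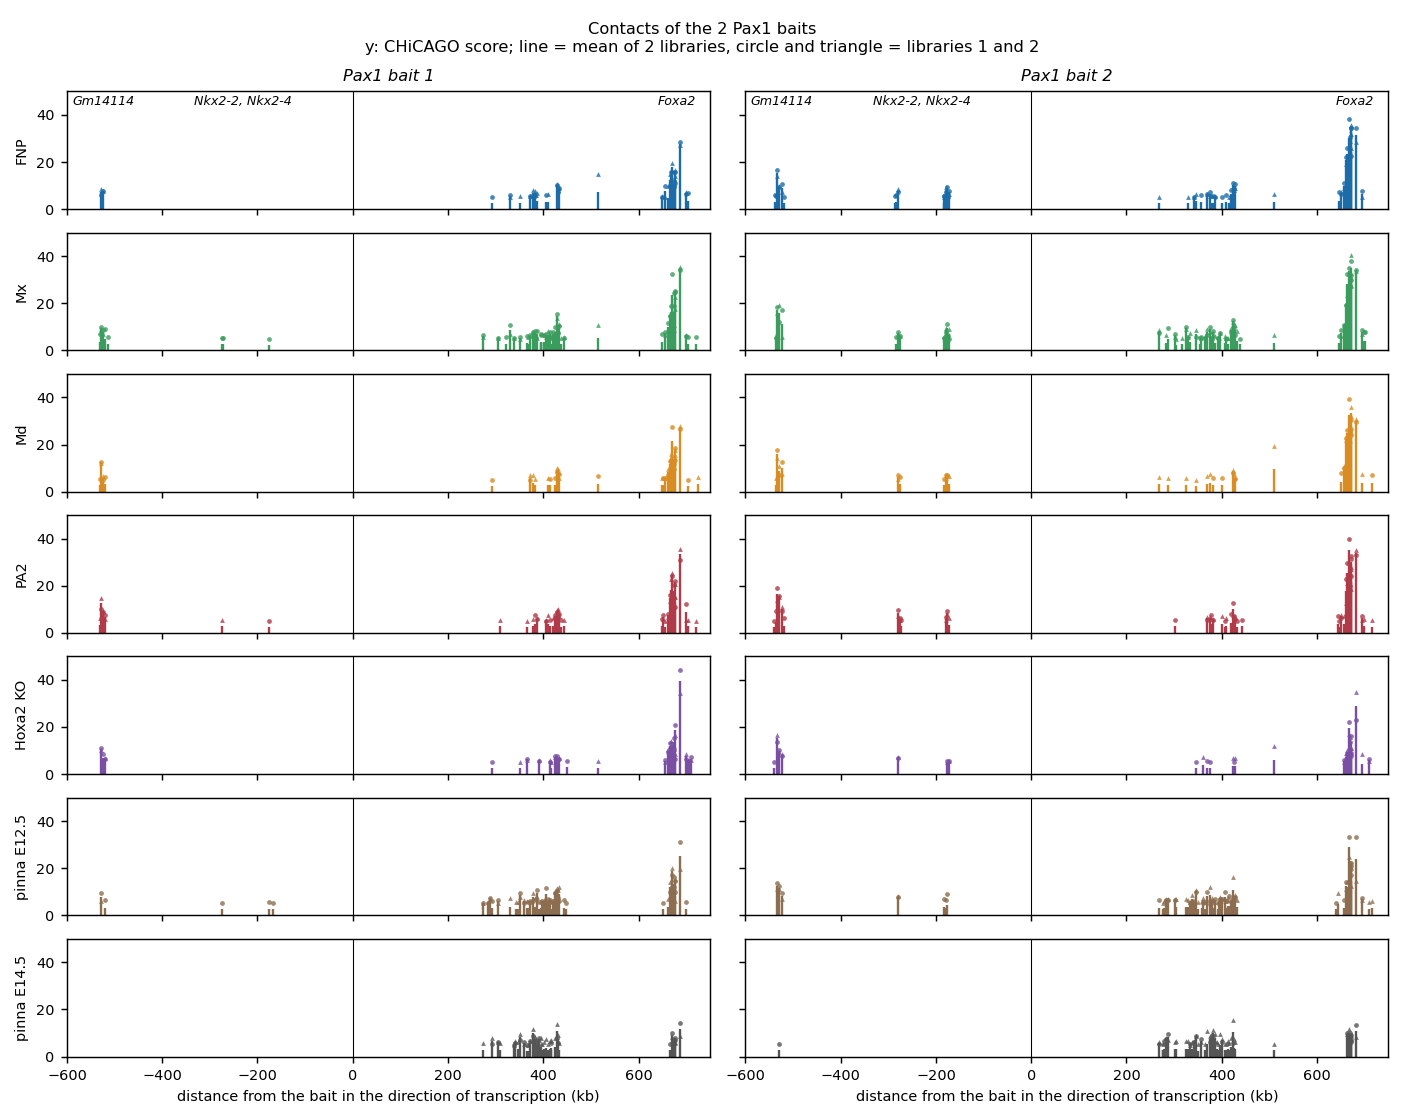
CHiCAGO score (y axis, 0 to 50) of the contacts of *Pax1* bait 1 (left) and *Pax1* bait 2 (right) against distance from the bait in kb (x axis, positive in the direction of transcription), 1 row per condition, with lines at the mean of 2 libraries and circles and triangles at the single libraries. The *Foxa2* group from 644.1 to 719.7 kb is present in all rows and lowest at E14.5, and the intergenic group between 269.2 and 443 kb is densest in Mx and the pinna.

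The *Foxa2* block of bait 2 held 16 fragments from 644.1 to 714.9 kb downstream. Its summed score was lower in the KO and the pinna than in every wild-type E10.5 library. For bait 1 this held in the pinna alone. With bait 2 the summed score was 276.2 and 235.6 in FNP, 294.4 and 259.6 in Mx, 249.4 and 234.5 in Md, 259.3 and 229.2 in PA2, 118.2 and 137.2 in KO PA2, 187.5 and 164.6 in the E12.5 pinna and 63.6 and 61.5 in the E14.5 pinna. The KO, the E12.5 pinna and the E14.5 pinna each stood apart from all other conditions. In number, 12 and 13 fragments were listed in PA2 and 10 and 11 in KO PA2. For bait 1 the summed score was 186.8 and 194.6 in PA2, 172.9 and 156.8 in KO PA2, 129.0 and 116.3 in the E12.5 pinna and 56.4 and 36.0 in the E14.5 pinna. Its KO values lay below those of PA2 but within the 147.4 to 237.7 of the wild-type E10.5 libraries, and all its pinna values lay below that range.

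Within this block, the fragment at 671.0 kb, in an intron of the non-coding *9030622O22Rik* beside *Foxa2* and shown above, scored 34.6 and 35.6 in FNP, 29.7 and 40.5 in Mx, 30.5 and 36.0 in Md and 31.4 and 27.0 in PA2. It scored 7.55 and 8.92 in KO PA2, 22.4 and 20.2 in the E12.5 pinna and 7.20 and 7.46 in the E14.5 pinna. Every wild-type E10.5 library lay above every other library, and the KO and the E14.5 pinna shared the low end. The KO difference was -1.26 ± 0.118 (limma adjusted p = 0.000647), called in 21 of 22 other settings, and the difference of E14.5 to PA2 was -1.38 (adjusted p = 0.000777). The fragments at 663.5 and 671.6 kb also fell in the KO, as did the same fragment seen from bait 1, from 21.9 and 20.9 in PA2 to 6.36 and 8.42. The *Foxa2* promoter fragment next to them was not called in the KO from either bait.

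The fragment at 661.3 kb was unlisted at E14.5. With bait 2 it scored 17.6 ± 7.22 (SD, n = 2) in PA2, 6.01 and 8.80 in KO PA2, 14 and 11.2 in the E12.5 pinna and 0 and 0 in the E14.5 pinna, against a range of 19.3 to 22.7 over the 6 libraries of FNP, Mx and Md. The step from E12.5 to E14.5 was -3.22 (limma adjusted p = 0.000796), and the pinna call held in all 22 other settings.

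Between *Pax1* and *Foxa2* lay a stretch, with the non-coding *A530006G24Rik* and *Gm14106*, that went the other way. Of 36 fragments from 274 to 443 kb, bait 1 listed 9 and 10 in FNP, 24 and 21 in Mx, 7 and 7 in Md, 9 and 12 in PA2, 7 and 8 in KO PA2, 25 and 24 in the E12.5 pinna and 15 and 28 in the E14.5 pinna. Of 37 fragments from 269.2 to 431.7 kb, bait 2 listed 13 and 12 in FNP, 19 and 28 in Mx, 4 and 9 in Md, 11 and 8 in PA2, 4 and 3 in KO PA2, 26 and 30 in the E12.5 pinna and 15 and 31 in the E14.5 pinna. Mx and the pinna lay above FNP, Md, PA2 and KO PA2 for both baits, and the E14.5 replicates differed from each other nearly as much as the conditions. This stretch too was drawn after the values were seen.

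The 4 *Pax1* pairs called as higher in the pinna than in PA2 all lay in this stretch. The fragment at 360.4 kb of bait 1 was listed in the pinna alone, at 5.35 and 6.41 in the E12.5 libraries and 6.23 and 5.44 in those of E14.5 (2.47 ± 0.393, limma adjusted p = 0.0116), and so passed the filter of 4 libraries only through the group in which it was called. At 373.1 kb, bait 1 scored 5.69 to 6.70 in the 4 pinna libraries and 5.07 to 6.92 in FNP, Mx and Md, and 0 in PA2 and KO PA2 (2.54 ± 0.424, adjusted p = 0.0133), so that PA2 was the exception there. At 305.7 kb, bait 1 scored 5.30 to 6.45 in the pinna, 5.40 and 5.26 in Mx and 0 elsewhere, and at 341.2 kb bait 2 scored 5.21 to 6.76 in the pinna and 5.39 and 5.14 in FNP. Without the pinna, the pairs at 305.7 and 341.2 kb fall short of the filter of 4 libraries. They too passed it only with the group in which they were called. All these scores are near the floor of 5.

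In this stretch 1 pair was called in the KO. At 431.0 kb, bait 1 scored 7.32 and 8.32 in FNP, 7.62 and 8.23 in Mx, 7.45 and 9.42 in Md, 7.43 and 10.3 in PA2, 7.53 and 10.9 in the E12.5 pinna and 5.65 and 9.25 in the E14.5 pinna, and 0 and 0 in KO PA2. The KO difference was -2.87 ± 0.346 (limma adjusted p = 0.00164) and was called in all 21 other settings that tested it. It shares this pattern with the *Pax9* contact at 297.8 kb.

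Super-enhancers (SEs), clusters of H3K27ac-marked enhancers that the study called on its merged E10.5 tissues, gave 27 combinations of a Pax bait and an SE within 2 Mb. Of these, 8 were listed in at least 1 library and 6 were tested, with the mean score over all fragments that overlap the SE as interaction strength, for FNP against the other E10.5 wild-type tissues. The study linked SEs to genes on these same libraries. Only *Pax7* with the SE nearest its start (chromosome 4, 139811111 to 139823901) reached an exact p of 0.0357, the smallest possible, with 1.41 and 1.62 in FNP against 0 to 1.09 (difference 1.16). It rests on 1 listed fragment per library, that at 10.2 kb described above. Limma did not call the score of that pair for FNP (adjusted p = 0.617). The exact p-values of the 6 tests were not adjusted for their number. A further SE in *Pax7* (139746160 to 139755259) and 1 behind it (139714482 to 139724798) were listed in FNP 2 alone, at 5.80 and 6.87, and were not tested.

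*Pax3* met 3 SEs downstream. The SE at 78050701 to 78083559 had a strength of 0 and 0.767 in FNP, 4.99 and 4.10 in Mx, 3.44 and 4.50 in Md and 2.16 and 0.766 in PA2 (difference -2.94, exact p = 0.0714), and of at most 0.956 in the KO and pinna libraries. Mx and Md lay above all other libraries there. The SE at 78003111 to 78028150 was listed in all 14 libraries, from 0.418 and 0.450 in the E14.5 pinna to 5.52 and 5.02 in Mx, the highest mean. It had 5.79 and 4.50 in Md. KO PA2, at 5.39 and 4.81, lay above PA2, at 2.52 and 2.17, a difference that was not tested. The SE at 78157876 to 78191100, next to the bait, reached at most 2.24. FNP did not pass the test for either of these (exact p = 0.357 and 0.214).

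*Pax9* met 2 SEs, both in *Slc25a21*. For that at 57058227 to 57077574 the strength was 4.67 and 7.20 in FNP, 2.89 and 7.11 in Mx, 3.55 and 2.33 in Md, 3.78 and 3.88 in PA2, 0 and 1.04 in KO PA2, 1.09 and 0 in the E12.5 pinna and 0 and 0 in the E14.5 pinna. For that at 57107925 to 57123255 it was 6.93 and 5.95 in FNP, 4.73 and 6.19 in Mx, 2.19 and 3.04 in Md, 2.22 and 1.88 in PA2, and 0.843 to 2.08 in the KO and pinna. FNP and Mx were at the top for the latter, and all KO and pinna libraries were below all wild-type E10.5 libraries for the former. FNP did not pass the test for either (exact p = 0.107 and 0.0714). Within 2 Mb, no contact of *Pax1* lay in an SE.

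Beyond 2 Mb on its own chromosome, *Pax3* had 69 distinct pairs, *Pax7* 6 and *Pax9* 24. *Pax1* bait 2 met fragments at *Pax6*, another member of the family 41.7 Mb away on chromosome 2, in up to 5 libraries each. Its pair with the *Pax6* start at 105677622 to 105679682 scored 6.29 and 6.47 in FNP, 11.6 in Md 2 and 16.8 in PA2 1. It was at 0 elsewhere, in the KO as in the pinna. *Pax1* bait 1 met another *Pax6* start, at 6.04 and 11.0 in Mx and 5.21 in Md 1. No pair of a Pax bait with another chromosome was listed in 2 or more libraries.

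The baits on other chromosomes with a protein-coding start whose contact number, as the centred log2 value, was most like that of *Pax3* over the 14 libraries were those of *Tlx1* (Pearson r = 0.942), *Prrg3* (r = 0.936) and *Pax6* (r = 0.929). *Tlx1* was listed with 33 and 24 fragments in Mx and 2 and 0 in the E14.5 pinna. For *Pax9* they were *Ccdc17* (r = 0.938), *Lyzl1* (r = 0.935) and *Gata3* (r = 0.929), for *Pax1* bait 1 *Mief1* (r = 0.766), *4930558K02Rik* (r = 0.762) and *Naa60* with *Zfp597* (r = 0.743), and for *Pax1* bait 2 *Cxcl12* (r = 0.847), *Morn1* with *Rer1* (r = 0.816) and *Kctd3* (r = 0.813). These are the highest of 10755 baits compared for *Pax3*, 11024 for *Pax9* and 10445 for each *Pax1* bait, and all baits share the same 14 libraries with their depth and cell numbers.

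Among the other Pax genes, 4 of 6 baits were tested and 3 differed over the 7 conditions, against the 9.69% of all baits. *Pax2*, a gene of kidney, eye and ear placode, was listed with 27 and 26 fragments in PA2, 13 and 7 in the E12.5 pinna and 7 and 3 in the E14.5 pinna (log2 difference -1.84 ± 0.295, limma adjusted p = 0.00212). *Pax6* had 14 and 17 in PA2 and 4 and 4 in the E14.5 pinna (-1.06 ± 0.264, adjusted p = 0.0291), and both fell in the pinna, 2 of 4 against 4.74%.

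Of 14 tested baits of genes that act with *Pax3* or *Pax7*, 7 differed over the 7 conditions, against 9.69% of all baits, those of *Alx1*, *Alx4*, *Msx2*, *Eya1* and *Tfap2a* and both of *Zic1*, and 2 fell in the pinna, *Msx2* and *Eya1*, where 4.74% of all baits were called and 2.39% as lower. *Msx2*, a homeobox gene of facial and skull mesenchyme, had 25 and 14 fragments in PA2 and 1 and 5 at E14.5 (limma adjusted p = 0.000619 over the 7 conditions). *Alx1*, needed for the upper face, had 19 and 26 in FNP, 7 and 11 in Mx and at most 7 elsewhere (adjusted p = 0.00363), without a call for FNP against the other 3. Of 12 tested baits of genes that act with *Pax1* or *Pax9*, 4 differed over the conditions, *Bmp4*, *Eya1*, *Uncx* and *Foxc2*, and 3 fell in the pinna, *Eya1*, *Uncx* and *Foxc2*, against the same shares of all baits. No bait of the 3 lists was called in FNP or in the KO, and the median log2 difference in the pinna was -1.36, -0.105 and -0.22 for the 3 lists, against -0.02 over all baits.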

How the data were processed

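The authors made the libraries from HindIII-digested, crosslinked CNCCs, mapped and filtered the reads with HiCUP and called contacts in each library with CHiCAGO on mm10 (GRCm38). The deposited values are CHiCAGO scores of listed bait-fragment pairs, at least 5 and with no read counts, so depth and its precision are unknown. The files of Md 1 and pinna E12.5 2 are named as merged, and they were used as deposited. Groups came from the sample labels, with 2 libraries in each of 7 conditions.

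All pairs were read, unlisted pairs were set to 0, and fragments were checked against a HindIII digest of GRCm38. The number of listed fragments within 2 Mb, for baits with at least 5 fragments in at least 2 libraries, was tested as log2(number + 1) centred on the library mean. The asinh of the score was tested for same-chromosome pairs listed in at least 4 libraries. Both were fitted with limma 3.58.1 in R 4.3.3 (lmFit, eBayes with trend) on all 14 libraries, with Benjamini-Hochberg adjustment over all baits or all pairs and a threshold of 0.05. The fits were also tried on the same values shuffled over the libraries within each bait or pair, with a shift added to some. Those shifts were larger than the Pax differences given here, so recovery of smaller differences was not tested. SE strength and Pax7 contact number were compared with two-sided exact permutation tests in Python 3.11.15. Distances run from bait to fragment, positive in the direction of transcription.

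The members and lists were chosen with earlier results of these data known. In the list of genes that act with Pax3 or Pax7, 1 gene is not reported here and its bait is in none of the list's counts. Named were all Pax baits, fragments among the 5 strongest of each gene, called pairs up to 10 per test, all SEs within 2 Mb, genes with a start in a contact listed in both libraries of a condition, and 3 baits of most similar contact number. Some further called pairs were chosen after their values were seen. Among them were those of Pax1 bait 2 at 532.7 and 661.3 kb and of Pax9 at 162.9 and 166.2 kb. Blocks were drawn after the values were seen. SE positions came from the study's list, of which the part used here covers the 4 chromosomes in full. Upstream sequences are from RefSeq, the others from GRCm38. Alternatives changed the filter, centring, score threshold, scale, distance, libraries and stages. The stage comparisons, the test of Pax7 and the fit without both merged libraries were added after the data were seen.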

Additional observations from a re-analysis of the deposited data

How the results depend on the processing

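No Pax bait was called in FNP or in the Hoxa2 KO under any alternative run. Over the 7 conditions, 2 to 4 baits were called in place of 3, and 30 to 62 pairs in place of 42, apart from the 17 pairs with scores of 10 or more. Leaving out 1 library gave 2 to 3 baits and 41 to 55 pairs over the conditions, and 0 to 0 baits in FNP and in the KO. The 2 bait calls in the pinna became 1 with no centring, with all same-chromosome pairs, with scores of 10 or more, with an equal number of top-scoring pairs, with no filter, without both libraries rich in pairs between chromosomes and between the stages, and 0 with only the libraries of the contrast or E12.5 alone. Leaving out 1 library gave 0 to 2, with log2 differences of -0.900 to -0.581 for Pax3 and -0.611 to -0.496 for Pax9.

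The 7 pairs in FNP became 14 among pairs listed in at least 2 libraries, 2 with scores capped at 20, 4 on the log2(score + 1) scale and 1 with scores of 10 or more, and 2 to 7 without 1 library. The 26 pairs in the pinna became 43, 12 with scores of 10 or more, 48 with only the libraries of the contrast and 9 at E12.5 alone, and 5 to 37 without 1 library. The 12 pairs in the KO became 7 with no trend, 6 with scores of 10 or more, 40 with only the libraries of the contrast and 22 without both rich libraries, and 6 to 17 without 1 library. The alternatives that test fewer libraries or other pairs differ by construction, and for the rest the cause was not tested.

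With the replicate number as a block, the FNP pairs fell from 7 to 2, the pinna pairs were 21, the KO pairs 11, and the pairs over the conditions 42. The bait counts were 3 over the conditions, 0 in FNP, 2 in the pinna and 0 in the KO, with differences of -0.740 for Pax3 and -0.554 for Pax9. The labels give same-numbered libraries only a number in common. Their deviations correlated at 0.0124 to 0.179, all positive and over 0.1 in 1 of 21 pairs. Whether they shared a batch was not tested.

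For the SEs, the difference of Pax3 with that at 78050701 was -2.77, past the threshold, with fragment midpoints, and -3.46 to -2.56 without 1 library (past it without PA2 2). That at 78003111 gave -1.81 to -0.841, and that at 78157876 -1.16 to -0.519 (past it at -1.07 without Md 2). Pax7 with its nearest SE gave 0 with scores of 10 or more, 0.667 by number of fragments, and 1.06 to 1.31 without 1 library, where 1 FNP library against 6 cannot reach the threshold. Pax9 with that at 57058227 gave 3.79 against all 12 other libraries, past the threshold, and 0.748 to 3.27 without 1 library (past it at 2.65 without Mx 2). With that at 57107925 it gave -0.103 with scores of 10 or more, a reversal, 2.83 by number and 4.18 against all 12, both past the threshold, and 2.57 to 3.63 without 1 library (past it without Mx 2). The Pax7 contact number difference was 2.17 without FNP 2, where the threshold likewise could not be reached. Scores below 5 are unlisted, so a change from 0 to a score near 5 has a size set by that floor.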
